A study of Rattus norvegicus with 16 samples.

Results

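A list of 10 genes of osteoclast formation and bone resorption was followed through the monosodium iodoacetate (MIA) model of osteoarthritis in the rat knee. The genes were chosen by name (Tnfsf11, Tnfrsf11a, Tnfrsf11b, Oscar, Calcr, Ctsk, Acp5, Atp6v0d2, Dcstamp and Ocstamp), and each gene was read from a probe set to which the array annotation gives exactly 1 symbol. Of the 10 genes, 7 had such a probe set, 1 each, among the 18166 genes and 36685 probe sets of the whole array. Acp5, Dcstamp and Ocstamp were not analysed here. Tnfrsf11a and Tnfrsf11b also belong to the transcripts that the study selected on these same arrays, so their changes below are not independent evidence of that selection.

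The arrays (Affymetrix Rat Gene 2.0 ST) carried total RNA from the knee of male Wistar rats. The groups were intact animals without injection, and animals 2, 14 and 28 days after 3 mg of MIA was given into the knee joint, with 4 arrays in each group and 16 in all. The RNA of 2 rats was pooled on each array, so a group held 8 rats. MIA blocks glycolysis in chondrocytes and leads to joint damage, no saline-injected animals were arrayed, and the collected meniscus and articular cartilage carried along small pieces of capsule and bone. Values are log2 signals, on which a difference of 1 is a doubling.

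Osteoclasts are multinucleated cells that form by fusion of monocyte and macrophage precursors and dissolve bone and calcified cartilage. RANKL, the product of Tnfsf11, binds its receptor RANK (Tnfrsf11a) on these precursors, while osteoprotegerin (Tnfrsf11b) is a soluble decoy that captures RANKL. Mature cells pump protons into a sealed space under the cell and secrete proteases such as cathepsin K (Ctsk) into it. In the joint, osteoclasts act mainly in the bone beneath the cartilage, and RANKL and osteoprotegerin are also made by chondrocytes, osteocytes and synovial fibroblasts.

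The promoters of 3 of the genes are shown because these genes passed the test below on different days, Oscar on day 2 and Ctsk and Tnfsf11 on days 14 and 28. Each sequence spans 300 bases, from 250 before to 50 after the transcription start, in RefSeq on the rat build GRCr8. Capitals mark letters that match motifs of the osteoclast regulators NFAT (GGAAA), PU.1 (GAGGAA) or MITF (CATGTG), on either strand. A match on the opposite strand reads TTTCC for NFAT, TTCCTC for PU.1 and CACATG for MITF.

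Ctsk (chr2:185747298-185747597, plus strand): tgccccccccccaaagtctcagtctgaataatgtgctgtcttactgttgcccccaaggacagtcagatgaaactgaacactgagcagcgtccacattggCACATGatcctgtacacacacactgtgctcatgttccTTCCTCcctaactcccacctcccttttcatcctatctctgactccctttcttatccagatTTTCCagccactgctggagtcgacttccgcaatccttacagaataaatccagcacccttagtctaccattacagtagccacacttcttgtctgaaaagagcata
Tnfsf11 (chr15:60114430-60114729, minus strand): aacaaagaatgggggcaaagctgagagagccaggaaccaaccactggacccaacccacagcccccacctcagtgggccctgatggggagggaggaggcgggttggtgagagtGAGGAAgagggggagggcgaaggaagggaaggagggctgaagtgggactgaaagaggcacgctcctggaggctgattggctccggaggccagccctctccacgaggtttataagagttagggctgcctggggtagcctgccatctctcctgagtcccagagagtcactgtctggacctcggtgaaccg
Oscar (chr1:74522633-74522932, plus strand): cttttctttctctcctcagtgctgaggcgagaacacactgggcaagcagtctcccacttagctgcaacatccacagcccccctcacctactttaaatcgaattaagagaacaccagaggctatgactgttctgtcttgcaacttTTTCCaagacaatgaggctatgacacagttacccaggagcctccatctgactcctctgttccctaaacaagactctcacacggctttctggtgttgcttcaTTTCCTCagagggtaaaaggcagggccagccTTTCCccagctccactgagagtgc

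The Ctsk window held 1 match to each of the 3 motifs, with first bases at -151 (MITF), -114 (PU.1) and -54 (NFAT) from the start. The Oscar window held 3 NFAT matches, the middle one overlapping a PU.1 match, and the Tnfsf11 window held 1 PU.1 match. The same letters were found in 62.7% (NFAT), 27.6% (PU.1) and 14% (MITF) of 33469 rat promoter windows, so a match is common and is a description of the sequence only. The window of Calcr, the only other measured member with a promoter in the table, held no match to these motifs, and neither an AP-1 match (TGANTCA, 7.33% of windows) nor a RUNX match (TGTGGT, 17.3%) was found in any of the 4 windows.

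Compared with intact animals, 3 of the 7 measured genes passed an adjusted p of 0.05 on day 2, 5 on day 14 and 5 on day 28. The background was high, since 26% of all probe sets passed on day 2, 15.1% on day 14 and 14.2% on day 28, and 35%, 20.9% and 20.5% when each gene was represented by its brightest probe set. Arrays of day and intact did not overlap for 4, 5 and 5 of the 7 genes, against 27%, 18.4% and 18.2% of all probe sets. The median difference of the 7 genes was 0.13 on day 2, 0.58 on day 14 and 0.50 on day 28, against -0.05, -0.03 and 0.01 over all genes. Tnfrsf11a and Oscar were higher on day 2, and Ctsk, Atp6v0d2, Tnfsf11 and Tnfrsf11a were higher on days 14 and 28, while Tnfrsf11b was lower on every day. All 3 comparisons share the same 4 intact arrays. In whole tissue, more cells of a type and more RNA per cell cannot be told apart.

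**Figure D1:**
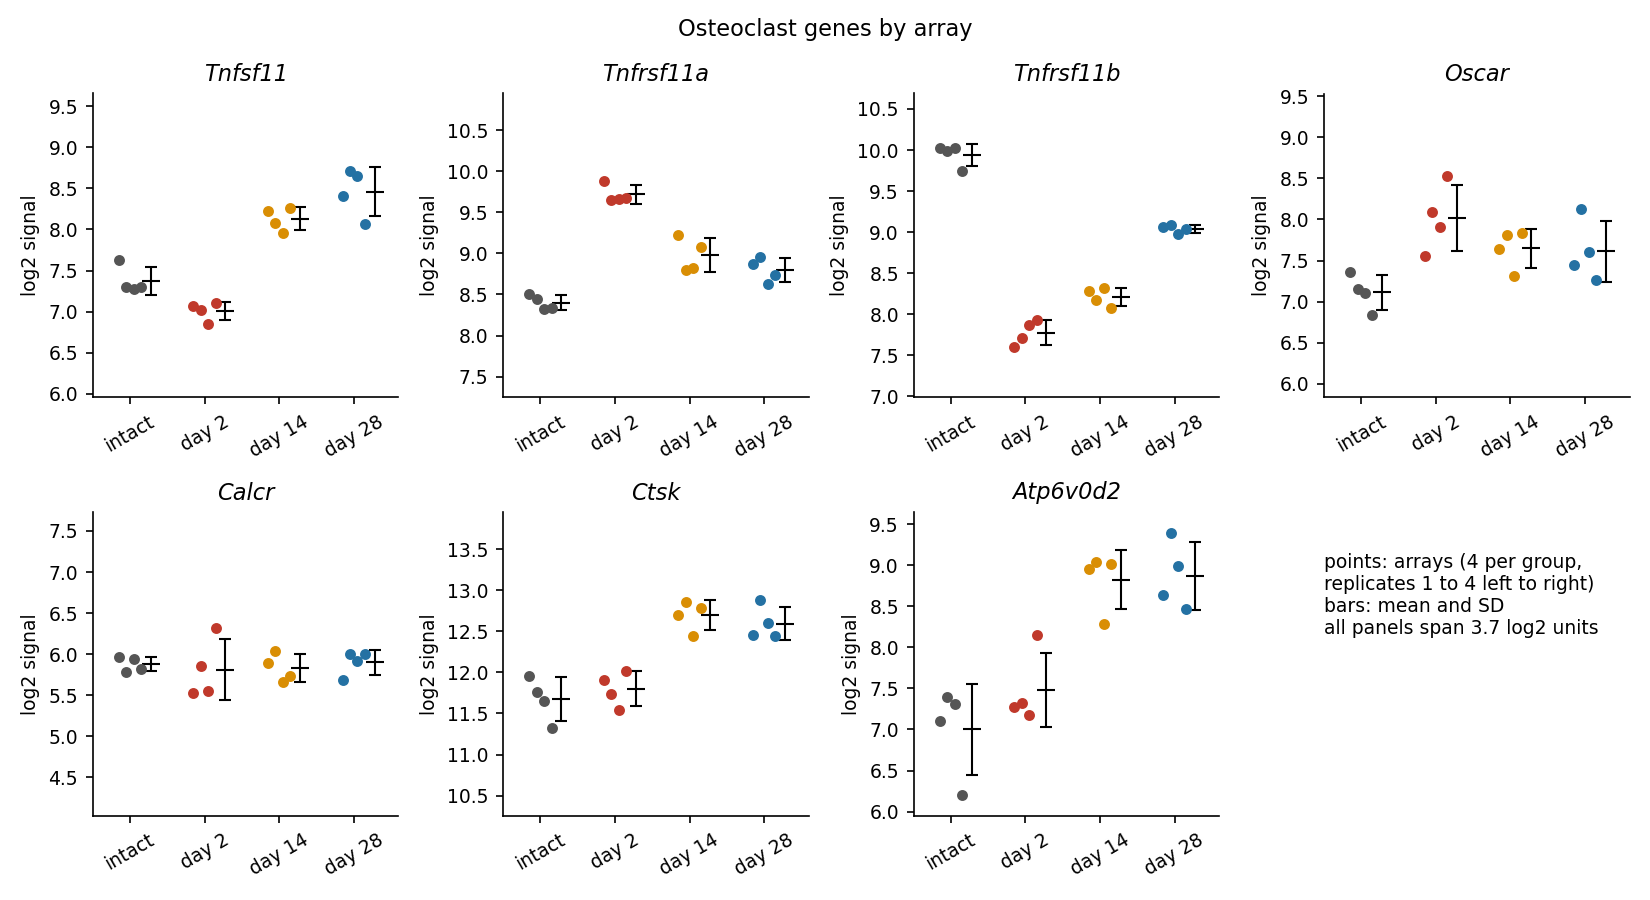
Log2 signal of the 7 measured osteoclast genes (vertical axes, each spanning the same number of log2 units) in intact animals and on days 2, 14 and 28 after MIA (horizontal axes). Points are single arrays, replicates 1 to 4 from left to right, and bars give the mean and SD of 4 arrays. Tnfrsf11b lies between 7.60 and 9.09 on all MIA arrays and between 9.74 and 10.02 on the intact arrays.

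Tnfrsf11b, the decoy receptor osteoprotegerin, had the lowest adjusted p of the 7 genes at each day. The intact arrays read 10.02, 9.98, 10.02 and 9.74, the day 2 arrays 7.60, 7.71, 7.88 and 7.93, the day 14 arrays 8.28, 8.18, 8.32 and 8.07, and the day 28 arrays 9.06, 9.09, 8.97 and 9.04. All MIA arrays lay below all intact arrays, and the 3 days did not overlap with each other. The signal was 4.49-fold lower on day 2 (difference -2.17 ± 0.09, SE, adjusted p = 9.4e-09), 3.32-fold lower on day 14 (-1.73 ± 0.09, adjusted p = 1.5e-07) and 1.87-fold lower on day 28 (-0.90 ± 0.09, adjusted p = 1.4e-05). It was higher on day 14 than on day 2 by 0.44 ± 0.09 (adjusted p = 0.0037; 0.40, adjusted p = 0.057, without the 4 arrays of most muscle signal), and higher on day 28 than on day 14 by 0.82 ± 0.09 (adjusted p = 0.0011). Between days 14 and 28, Tnfrsf11b was the only one of the 7 genes that passed, in a comparison where 0.461% of all probe sets did. That call was lost without the 4 arrays of least marrow signal, which are replicates 1 and 4 of both days (0.78, adjusted p = 0.18). Over all probe sets that fit left 3 higher and 17 lower, against 69 and 100 with all arrays. The loss is thus not particular to Tnfrsf11b.

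Chondrocyte markers moved in the same days as Tnfrsf11b. Of 16 measured markers, 11 fell on day 2, 8 on day 14 and 4 on day 28 and none rose. These are 68.8%, 50% and 25% of the list, against 15.2%, 8.74% and 9.57% of all genes lower. The largest called differences were those of Scrg1 (-4.35 on day 2), Cytl1 (-3.39 on day 28), Col2a1 (-3.12 on day 14) and Chad (-2.91 on day 14). The list mean ranged from 7.25 to 8.70 on day 2, 7.76 to 8.42 on day 14 and 8.42 to 9.25 on day 28, against 9.14 to 9.67 in intact animals. With that mean as a covariate, the differences of Tnfrsf11b were -2.32 on day 2 (adjusted p = 3.8e-05), -1.86 on day 14 (0.00023) and -0.96 on day 28 (7.4e-05). The list mean did not overlap with intact on days 2 and 14, so this fit cannot separate the list from the day. A link between the 2 changes was not tested.

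Tnfsf11, which encodes RANKL, took another course. The intact arrays read 7.63, 7.30, 7.27 and 7.29, the day 2 arrays 7.07, 7.02, 6.85 and 7.10, the day 14 arrays 8.22, 8.07, 7.96 and 8.26, and the day 28 arrays 8.41, 8.72, 8.65 and 8.06. All day 2 arrays were below, and all day 14 and day 28 arrays above, the intact arrays. The signal was 1.69-fold higher on day 14 (0.76 ± 0.13, adjusted p = 0.0014) and 2.12-fold higher on day 28 (1.08 ± 0.13, adjusted p = 7.4e-05). On day 2 the difference of -0.36 ± 0.13 missed the threshold (adjusted p = 0.058), with a 95% interval from -0.65 to -0.08, and it passed when 1 probe set was tested per gene (adjusted p = 0.035). It was -0.02 with the chondrocyte mean as a covariate (adjusted p = 0.98), -0.21 with the osteoblast mean (0.26) and -0.83 with the macrophage mean (0.19). Day 14 exceeded day 2 by 1.12 ± 0.13 (adjusted p = 3.7e-05), and days 28 and 14 overlapped (0.33 ± 0.13, adjusted p = 0.36).

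Ligand and decoy shifted relative to each other on every day, and on day 2 only the fall of the decoy had passed the test. Tnfsf11 minus Tnfrsf11b, set to 0 at the intact mean, ranged from -0.18 to 0.18 on the intact arrays, 1.55 to 2.04 on day 2, 2.21 to 2.76 on day 14 and 1.59 to 2.24 on day 28. No MIA array overlapped with the intact arrays. The means were 1.80 ± 0.21 on day 2, 2.49 ± 0.23 on day 14 and 1.99 ± 0.30 on day 28, against 0 ± 0.18 in intact animals (SD, n = 4 arrays), which correspond to a 3.49-, 5.60- and 3.97-fold shift of the pair. These values combine 2 of the listed genes and carry no test of their own. They show unequal change of the 2 transcripts and not the ratio of the proteins.

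**Figure D2:**
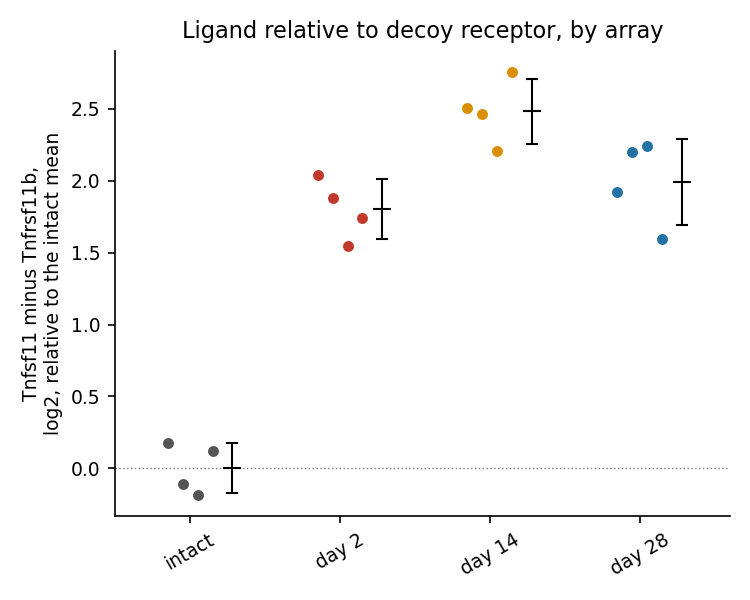
Difference between the log2 signals of Tnfsf11 (RANKL) and Tnfrsf11b (osteoprotegerin) on each array (vertical axis, log2, relative to the intact mean) by group (horizontal axis). Points are single arrays and bars the mean and SD of 4 arrays. All 12 MIA arrays lie at 1.55 or above, and the intact arrays at 0.18 or below.

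The receptors carried by osteoclast precursors had their highest mean on day 2. Tnfrsf11a, the RANKL receptor RANK, read 8.50, 8.45, 8.32 and 8.33 on the intact arrays, 9.88, 9.64, 9.67 and 9.67 on day 2, 9.23, 8.80, 8.83 and 9.08 on day 14, and 8.87, 8.96, 8.63 and 8.73 on day 28. Every MIA array was above every intact array, and day 2 stood above both later days. The signal was 2.49-fold higher on day 2 (1.32 ± 0.11, adjusted p = 7.2e-07). It was also higher by 0.58 ± 0.11 on day 14 (adjusted p = 0.0018) and by 0.40 ± 0.11 on day 28 (1.32-fold, adjusted p = 0.02). It was lower on day 14 than on day 2 by a difference of -0.73 ± 0.11 (adjusted p = 2e-04). The call on day 28 was lost without intact replicate 3 or 4 or day 28 replicate 1 or 2 (0.34 to 0.37, adjusted p = 0.053 to 0.062), and that on day 14 without the 4 arrays of least marrow signal, which are replicates 1 and 4 of days 14 and 28 (0.41, adjusted p = 0.078). The day 28 call was lost as well with the marrow mean as a covariate (0.34, adjusted p = 0.29) and without either set of 4 arrays, those of least marrow (0.39, adjusted p = 0.097) or of most muscle signal (0.38, adjusted p = 0.063). Without the arrays of least marrow signal, 870 probe sets were higher and 796 lower on day 14, against 3350 and 2206 with all arrays. On day 28 they were 846 and 865, against 2848 and 2368. The marrow mean left 711 and 826 on day 28, and the exclusion for muscle signal left 2189 and 1614. These losses are thus not particular to Tnfrsf11a.

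Oscar, a collagen-binding receptor that gives osteoclast precursors a costimulatory signal, spread more widely. It read 7.36, 7.16, 7.10 and 6.84 on the intact arrays, 7.56, 8.09, 7.91 and 8.53 on day 2, 7.64, 7.81, 7.31 and 7.83 on day 14, and 7.45, 8.12, 7.60 and 7.27 on day 28. The day 2 arrays were all above the intact arrays, while those of days 14 and 28 overlapped with them. The difference was 0.91 ± 0.21 on day 2 (1.88-fold, adjusted p = 0.0042), and 0.54 ± 0.21 (adjusted p = 0.1) and 0.50 ± 0.21 (adjusted p = 0.14) on days 14 and 28, which did not pass. Day 14 and day 2 overlapped (-0.37 ± 0.21, adjusted p = 0.3), so a later decline of Oscar was not shown. The day 2 call was lost with the chondrocyte mean as a covariate (0.85, adjusted p = 0.24). In that fit 1548 probe sets of the array were higher and 1025 lower on day 2, against 5404 and 4122 without the covariate. The loss is thus not particular to Oscar.

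Macrophage and monocyte markers moved with both receptors on day 2. Of 19 measured markers, 13 rose and 2 fell on day 2 (68.4% and 10.5%, against 19.8% and 15.2% of all genes). On day 14, 7 markers rose and 4 fell (36.8% and 21.1%, against 12.2% and 8.74%), and on day 28 5 markers rose and 4 fell (26.3% and 21.1%, against 11% and 9.57%). Their mean level ranged from 9.94 to 10.12 on day 2, against 9.21 to 9.41 in intact animals, with no overlap, and the later days (9.05 to 9.45 and 8.93 to 9.22) reached down to or below the intact level. With this mean as a covariate, the day 2 difference was 0.77 for Tnfrsf11a (adjusted p = 0.099) and 0.72 for Oscar (adjusted p = 0.49), and neither passed. In that fit 222 probe sets of the array were higher and 373 lower on day 2, against 5404 and 4122 without the covariate. Most calls of the array were thus lost, and the loss is not particular to the 2 receptors. Of the 4 markers with the largest called differences, Cx3cr1 (2.45) and Clec4a3 (2.55) rose on day 2, whereas Vsig4, a marker of resident macrophages, fell by 2.98 and Cd163 fell later, by 2.46 on day 28.

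Calcr, the calcitonin receptor of mature osteoclasts, lay below the median signal of every array, so its values can say little about its level. The arrays ranged from 5.78 to 5.96 in intact animals, 5.52 to 6.32 on day 2, 5.66 to 6.03 on day 14 and 5.69 to 6.00 on day 28. All groups overlapped. The differences from intact were -0.07, -0.05 and 0.02, and the 95% intervals lay within -0.39 and 0.34, which covers changes of either direction.

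Cathepsin K, the collagen-degrading protease that osteoclasts secrete and that synovial fibroblasts also make, rose on the later days. Ctsk read 11.96, 11.76, 11.65 and 11.32 on the intact arrays, 11.90, 11.74, 11.54 and 12.02 on day 2, 12.70, 12.86, 12.44 and 12.79 on day 14, and 12.45, 12.88, 12.60 and 12.44 on day 28. Day 2 overlapped with intact, and both later days were above all intact and all day 2 arrays. The difference was 0.13 ± 0.15 on day 2 (adjusted p = 0.57), 1.02 ± 0.15 on day 14 (2.03-fold, adjusted p = 0.00034) and 0.92 ± 0.15 on day 28 (1.89-fold, adjusted p = 0.00068). Day 14 exceeded day 2 by 0.89 ± 0.15 (adjusted p = 0.00061), and days 28 and 14 overlapped (-0.10 ± 0.15, adjusted p = 0.83).

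Atp6v0d2 encodes a subunit of the vacuolar proton pump that is abundant in osteoclasts and is needed for their fusion in the mouse. It read 7.10, 7.40, 7.31 and 6.20 on the intact arrays, 7.27, 7.32, 7.18 and 8.15 on day 2, 8.96, 9.03, 8.29 and 9.01 on day 14, and 8.64, 9.40, 8.99 and 8.46 on day 28. All arrays of days 14 and 28 were above all arrays of the other groups, and day 2 overlapped with intact. The estimated rise was the largest of the 7 genes on both later days, 3.54-fold on day 14 (1.82 ± 0.29, adjusted p = 0.00064) and 3.66-fold on day 28 (1.87 ± 0.29, adjusted p = 5e-04). On day 2 the difference was 0.48 ± 0.29 (adjusted p = 0.25), and day 14 exceeded day 2 by 1.34 ± 0.29 (adjusted p = 0.0046), a call lost without the 4 arrays of least marrow signal (1.18, adjusted p = 0.083). For day 14 against day 2 that fit left 1347 probe sets higher and 1502 lower, against 2460 and 2871 with all arrays. The 2 later days did not separate (0.05 ± 0.29, adjusted p = 0.96).

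Synovial and fibroblast markers moved with Ctsk, Atp6v0d2 and Tnfsf11. Of 14 measured markers, 3 rose and 4 fell on day 2, while 8 rose on day 14 and 9 on day 28 and none fell on these later days. The later rises are 57.1% and 64.3% of the list, against 12.2% and 11% of all genes. Postn (1.13 on day 14) and Lum (1.00 on day 28) were among them. Lum (0.65) and Pdpn (0.75) rose already on day 2. Fap fell on day 2 (-1.20, adjusted p = 5.3e-05), and its differences of -0.12 and -0.05 on days 14 and 28 did not pass. The list mean ranged from 11.91 to 12.00 on day 14 and 11.96 to 12.08 on day 28, against 11.52 to 11.60 in intact animals. The groups thus did not overlap in this list either. With its mean as a covariate, the only call of the 7 genes left against intact on these days was Tnfrsf11b on day 14. Over all 36685 probe sets, 3 higher and 8 lower were left on day 14, against 3350 and 2206 without the covariate. On day 28, 3 higher and 8 lower were left, against 2848 and 2368. Nearly all calls of the array were lost in that fit, so the loss is not particular to these genes. The estimates of that fit were 1.54 and 1.52 for Ctsk, 2.87 and 3.09 for Atp6v0d2, and 0.96 and 1.32 for Tnfsf11 on days 14 and 28, none smaller than without the covariate. They were smaller for Tnfrsf11a, at 0.46 on day 14 (adjusted p = 0.73) and 0.25 on day 28 (adjusted p = 1), and for Tnfrsf11b, at -1.66 on day 14 (adjusted p = 0.015) and -0.83 on day 28 (adjusted p = 0.47).

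**Figure D3:**
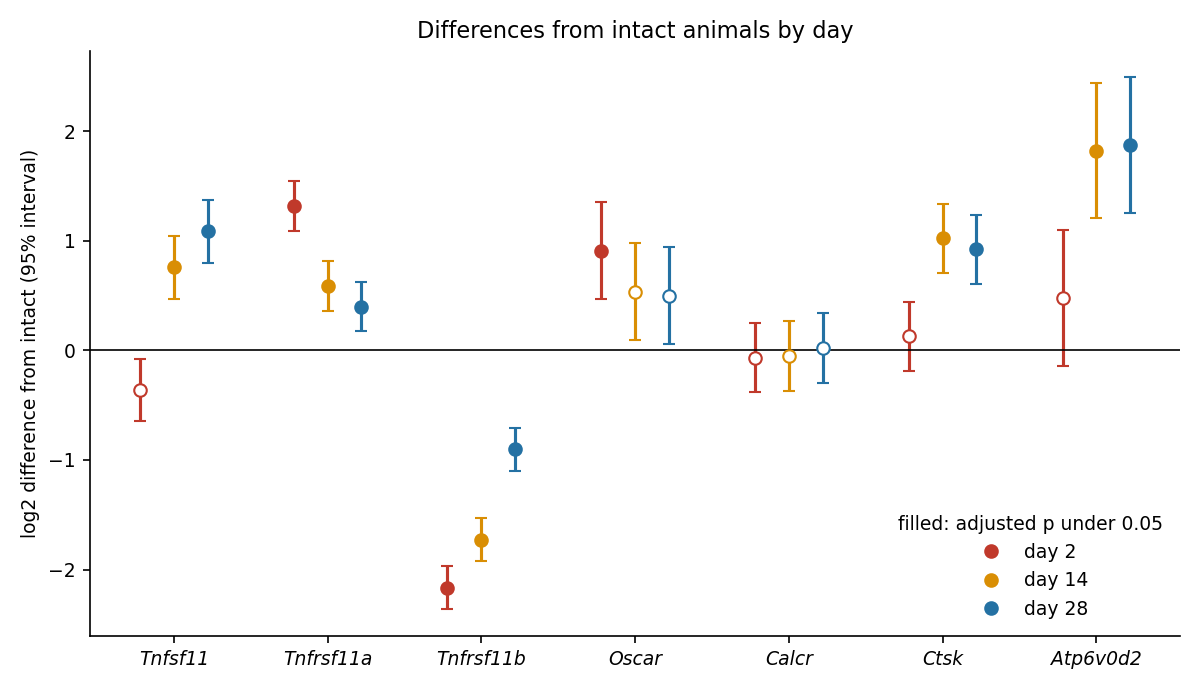
Log2 difference from intact animals (vertical axis) of each measured osteoclast gene (horizontal axis) on days 2, 14 and 28. Points are estimates from limma with 95% intervals, and filled points have an adjusted p under 0.05 over all probe sets. Tnfrsf11a and Oscar have their largest estimates on day 2 (1.32 and 0.91), Ctsk and Atp6v0d2 on days 14 and 28 (0.92 to 1.87), and Tnfrsf11b is below 0 throughout.

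Between day 14 and day 2, 5 of the 7 genes passed, against 14.5% of all probe sets. Ctsk, Atp6v0d2, Tnfsf11 and Tnfrsf11b were higher on day 14 and Tnfrsf11a was lower. With the macrophage mean as a covariate none of the 5 passed (adjusted p = 0.11 to 0.83), and 3 of the 7 genes had an unadjusted p under 0.05 in limma. Over all probe sets that fit left 33 higher and 5 lower, against 2460 and 2871 without the covariate. The estimates of that fit were larger for Ctsk (1.05), Tnfsf11 (1.61) and Atp6v0d2 (1.78), and smaller for Tnfrsf11a (-0.15) and Tnfrsf11b (0.18). Over the 16 arrays, each gene being set relative to its own intact mean, the 2 members most alike in course were Ctsk and Tnfsf11, with a root mean square distance of 0.32 log2 units, followed by Tnfrsf11a and Oscar (0.35). The largest distance was that between Tnfrsf11b and Atp6v0d2 (2.64). Among all 18166 genes, the course nearest to that of Ctsk was that of Mmp9, the gelatinase that osteoclasts and neutrophils secrete (0.16), followed by Podnl1 (0.16), which encodes a small leucine-rich matrix proteoglycan, and Lgals2 (0.19), a galectin. The nearest to Tnfrsf11b were Colgalt2 (0.21), an enzyme that glycosylates collagen, Enpp2 (0.33), which makes lysophosphatidic acid, and C1qtnf7 (0.35).

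The order of the arrays within a group was shared by several members. On day 28, replicate 2 was the highest array for all 7 genes, and replicate 4 was the lowest for Ctsk, Tnfsf11, Oscar and Atp6v0d2. On day 2, replicate 4 was the highest for 6 genes, all but Tnfrsf11a. On day 14, replicate 3 was the lowest for 5 genes, and in intact animals replicate 1 was the highest for 5 and replicate 4 the lowest for 4. The mean of 15 osteoblast and osteocyte markers was likewise highest in day 28 replicate 2 (10.09), day 2 replicate 4 (9.49) and intact replicate 1 (9.89), and lowest in day 14 replicate 3 (8.94) and intact replicate 4 (9.26). It was lowest on day 28 in replicate 1 (9.34) and not in replicate 4 (9.45), whereas the marrow marker mean of day 28 was highest in replicate 2 (9.19) and lowest in replicate 4 (6.74). Against intact, 3 of these markers were lower on day 2 (Bglap, Omd and, named after its value was seen, Col1a1) and 2 on day 14 (Bglap and Smpd3), and 1 was higher on day 28 (Ibsp). These are 20% of the 15 markers lower on day 2 against 15.2% of all genes, 13.3% lower on day 14 against 8.74%, and 6.67% higher on day 28 against 11%, which is near the background. With its mean as a covariate, the differences were 1.19 on day 14 and 0.86 on day 28 for Ctsk (adjusted p = 8.3e-06 and 2.9e-05) and 2.12 and 1.76 for Atp6v0d2 (adjusted p = 3.8e-05 and 4.8e-05). In the same fit the day 2 differences of Ctsk (0.36, adjusted p = 0.016) and Atp6v0d2 (0.90, adjusted p = 0.0075) also passed, as did Oscar on day 14 (0.72, adjusted p = 0.014).

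Further marker lists were measured as well. The mean of 18 skeletal muscle markers ranged from 6.79 to 12.09 over the 16 arrays. Marrow neutrophil and erythroid markers fell in 5 of 18 on day 14 (27.8%, against 8.74% of all genes) and in 14 of 18 on day 28 (77.8%, against 9.57%), and rose in none. Slc4a1 (-3.04), Ahsp (-2.90), Mmp8 (-2.47) and Mpo (-2.26) were among those that fell on day 28. Of 14 T and NK cell markers, 4 rose on day 2 (28.6%, against 19.8% of all genes), Cd8b (2.34), Cd8a (1.84) and Cd2 (1.52) among them. Only Gzma fell, by 0.49 (7.14%, against 15.2%). The other 9 did not pass, among them Cd3d (-0.04), Cd3e (-0.11) and Cd4 (-0.07), named after their values were seen. The median difference of the list was 0.001. With the muscle or the marrow mean as a covariate, Ctsk, Atp6v0d2, Tnfsf11 and Tnfrsf11b kept their day 14 and day 28 calls against intact, while the calls lost with the marrow mean or without the arrays of most muscle or least marrow signal are given with Tnfrsf11a, Atp6v0d2 and Tnfrsf11b above. The part of the T and NK cell markers was not tested. No value of the table was at 0.

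**Figure D4:**
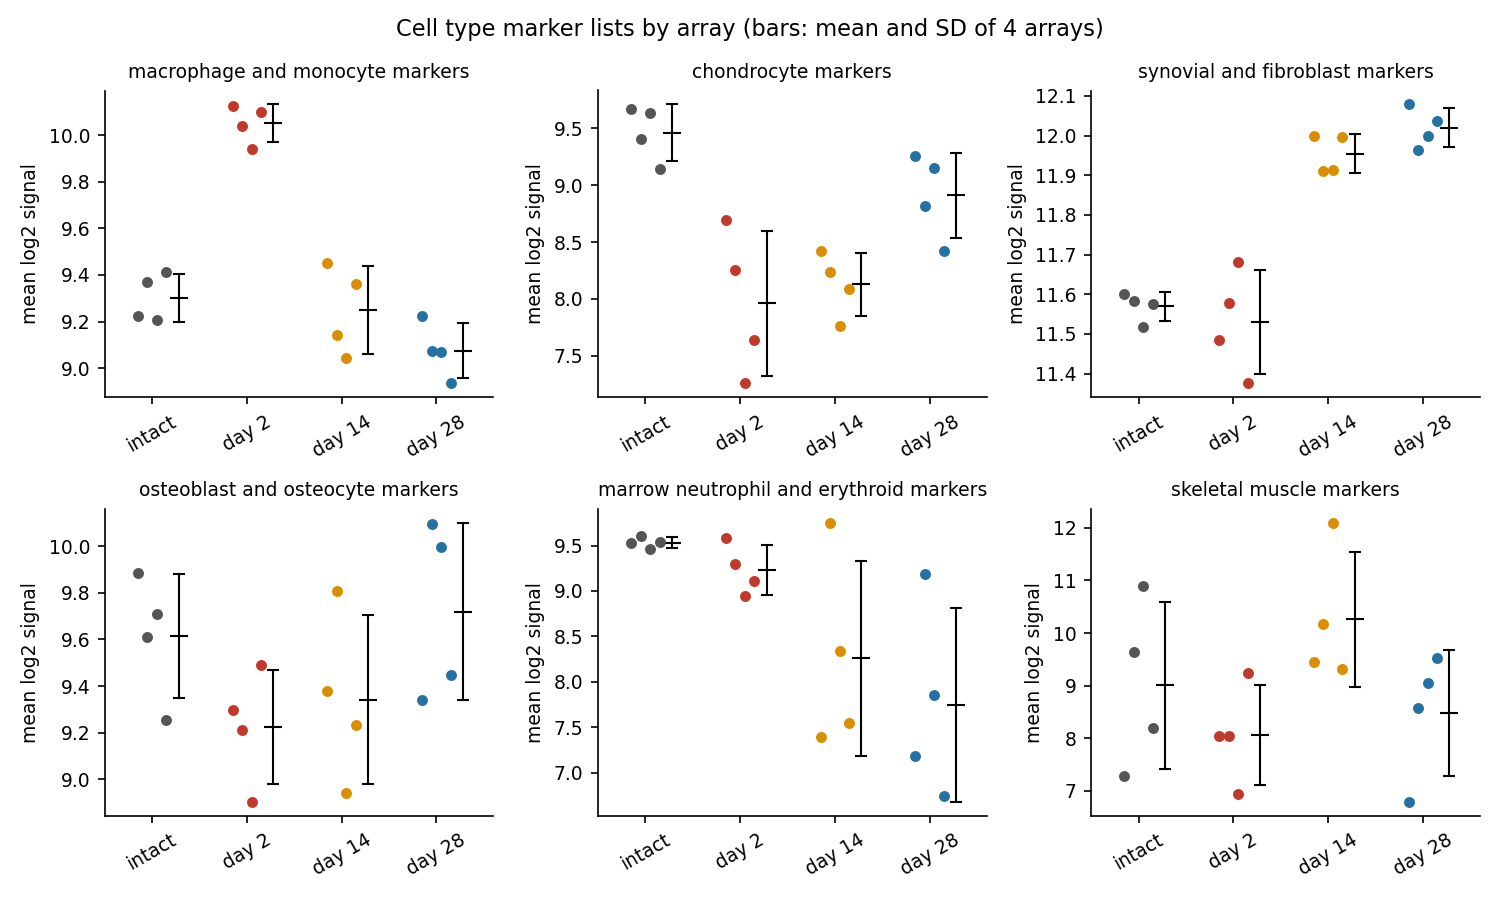
Mean log2 signal of 6 lists of cell type markers (vertical axes, with a scale of their own in each panel) on each array of the 4 groups (horizontal axes). Points are single arrays and bars the mean and SD of 4 arrays. The macrophage list is highest on day 2 (9.94 to 10.12) and the synovial list on days 14 and 28 (11.91 to 12.08). Arrays within a group differ in the osteoblast list (9.34 to 10.09 on day 28). On that day they differ more widely in the marrow (6.74 to 9.19) and muscle lists (6.79 to 9.52).

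Of the genes that act around RANK and the M-CSF receptor, 26 of 28 listed were measured. On day 2, 13 were higher and 2 lower than in intact animals, on day 14 10 and 1, and on day 28 10 and 2, with median differences of 0.32, 0.17 and 0.26. Over all genes, 19.8% were higher and 15.2% lower on day 2, 12.2% and 8.74% on day 14, and 11% and 9.57% on day 28. Csf1r, the M-CSF receptor of the precursors, was higher on day 2 (1.04 ± 0.11, adjusted p = 5.6e-06) and on day 28 (0.35 ± 0.11, adjusted p = 0.037), and Spi1, which encodes PU.1, on day 2 (1.10 ± 0.14, adjusted p = 3.3e-05), with 0.38 and 0.32 on the later days, which did not pass. Fos, an AP-1 subunit that precursors need to become osteoclasts in the mouse, was higher on each day, by 0.57, 1.00 and 1.45 (adjusted p = 0.036, 0.0021 and 0.00011), and its relative Fosl1 by 1.11, 0.63 and 1.24. The 2 genes lower on day 2 were Il34 (-0.84), a second ligand of the M-CSF receptor, and Rela (-0.43), an NF-kB subunit, both named after their values were seen. Il34 was also the gene lower on day 14 (-0.54) and, with the kinase gene Syk (-0.68, likewise named afterwards), on day 28 (-0.44). Nfatc1, the main regulator of the osteoclast programme, was not analysed here.

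Of 26 listed genes of the resorption machinery, 23 were measured, of which 11 rose and 0 fell on day 2 (47.8% and 0%, against 19.8% and 15.2% of all genes). On day 14, 17 rose and 1 fell (73.9% and 4.35%, against 12.2% and 8.74%), and on day 28 15 rose and 1 fell (65.2% and 4.35%, against 11% and 9.57%). The median difference was 0.27, 0.46 and 0.46. Mmp12, a macrophage elastase, differed by 0.69 on day 2 (adjusted p = 0.065) and rose by 3.50 ± 0.26 on day 14 (adjusted p = 2.3e-06) and 3.59 ± 0.26 on day 28 (adjusted p = 6.8e-07). Mmp14, a membrane-bound collagenase that fibroblasts also carry, rose by 1.46 and 1.47, and Mmp9 by 1.05 and 1.01, on days 14 and 28, and neither passed on day 2. The gene that fell was Car2, the carbonic anhydrase that supplies protons and is also abundant in red blood cells, by -1.21 on day 14 (adjusted p = 0.031) and -1.86 on day 28 (adjusted p = 0.0025), on the days on which the erythroid markers fell. Beside Atp6v0d2, the list held 8 subunit or accessory genes of the proton pump, a subset formed after the values were seen. Of these, 6 were higher on day 2, 8 on day 14 and 7 on day 28, against 19.8%, 12.2% and 11% of all genes. None was lower, and the differences were at most 1.00, below those of Atp6v0d2 at the later days.

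Of 11 further genes of cell fusion, 10 were measured, and 5 rose and 2 fell on day 2 (50% and 20%, against 19.8% and 15.2% of all genes). On day 14, 3 rose and 1 fell (30% and 10%, against 12.2% and 8.74%), and on day 28 5 rose and 1 fell (50% and 10%, against 11% and 9.57%). The falls are thus near the background. Ccl2, a monocyte chemokine, rose by 1.62, 1.38 and 1.00 on the 3 days, and its receptor Ccr2 by 1.27 on day 2, with 0.37 and -0.26 on the later days, which did not pass. Adam12, a fusion-associated metalloprotease, rose by 0.93, 1.21 and 1.42. Mfge8, a bridging protein for dying cells, fell by 1.39, 0.97 and 0.59. Cd9, a tetraspanin, fell by 0.86 on day 2 and was higher by 0.31 on day 28. Adam8 (1.26 on day 2), Myo10 (0.54 on day 28) and Sirpa (0.52, 0.31 and 0.26 on the 3 days) were the other fusion genes that rose. These 4 names were chosen after their values were seen.

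Of 12 listed brakes on osteoclast formation, 9 were measured. On day 2, 2 rose and 4 fell (22.2% and 44.4%, against 19.8% and 15.2% of all genes). On day 14, 1 rose and 3 fell (11.1% and 33.3%, against 12.2% and 8.74%), and on day 28 2 rose and 4 fell (22.2% and 44.4%, against 11% and 9.57%). The rises of days 2 and 14 are thus near the background. The medians of the list were -0.12, -0.17 and -0.22. Sema3a, a secreted semaphorin that restrains osteoclast formation in the mouse, fell by 2.14 ± 0.21 on day 2 (adjusted p = 3.2e-06), 1.05 on day 14 and 1.00 on day 28. Irf8, a transcription factor that holds back the osteoclast programme and is active in monocytes, rose by 1.52 ± 0.13 on day 2 (adjusted p = 1e-06), and its differences of 0.22 and -0.22 on days 14 and 28 did not pass. Socs3, an inhibitor of cytokine signalling, rose by 0.91, 0.97 and 0.88, and Dusp1, a phosphatase of MAP kinases, fell by 0.89 on day 2 and rose by 0.64 on day 28. Bcl6, a transcriptional repressor, fell by 0.68, 0.44 and 0.37 and Lgr4, a further receptor of RANKL, by 0.29, 0.35 and 0.30, and Cyld, a deubiquitinase, by 0.36 on day 28, all 3 named after their values were seen. The median of all genes was -0.05, -0.03 and 0.01 on the 3 days, and the lists are described by their counts, without a test of the list.

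**Figure D5:**
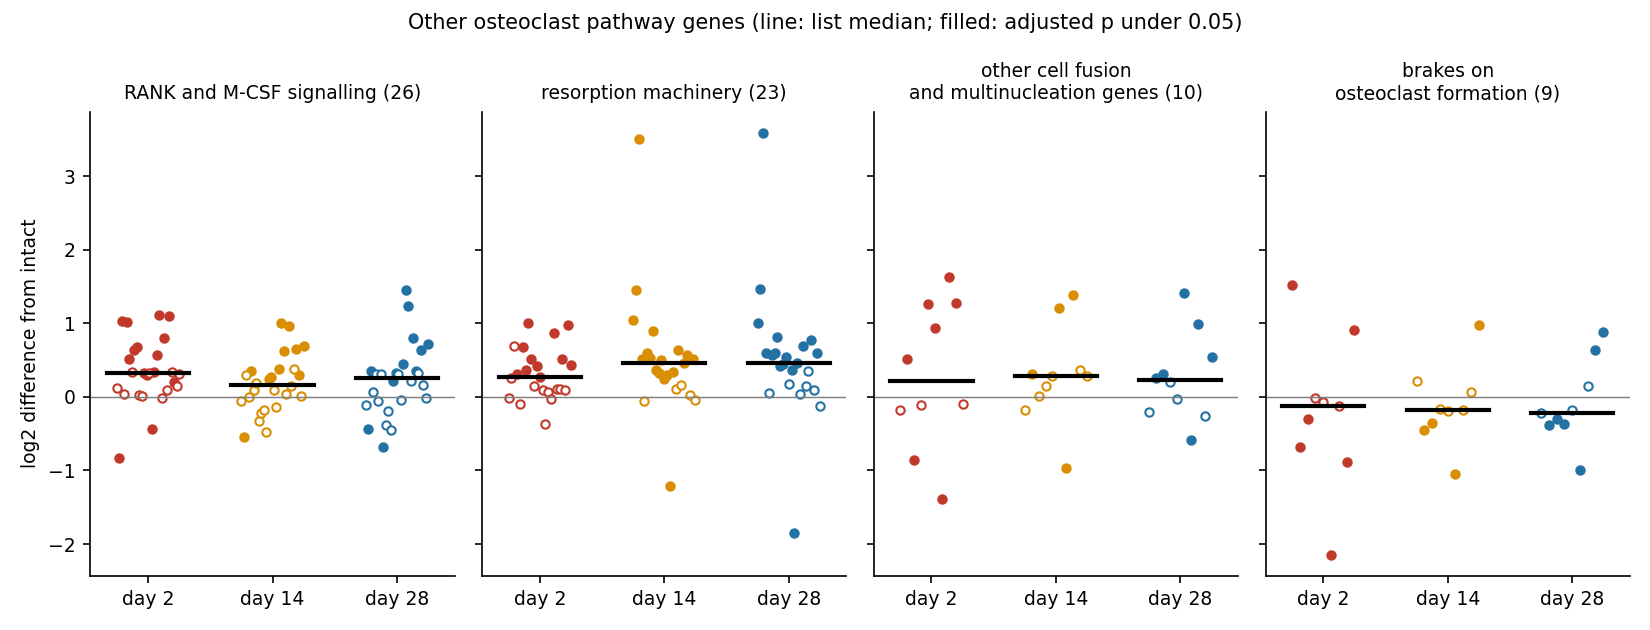
Log2 difference from intact animals (vertical axis) of the other measured genes of 4 osteoclast pathway lists on days 2, 14 and 28 (horizontal axis), with the number of genes in each title. Points are genes, filled where the adjusted p is under 0.05, and black lines are list medians, which for the resorption machinery are 0.27, 0.46 and 0.46.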

How the data were processed

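Total RNA of 16 knee tissue pools was hybridised to Affymetrix Rat Gene 2.0 ST arrays, and groups were taken from the sample labels. For each probe set the authors deposited a log2 signal, made per the labels by RMA in oligo 1.36.1 (background subtraction, quantile normalisation between arrays and summarisation of probes). They were used as deposited. Precision is limited by how many arrays there are. The annotation gave 1 symbol to 18511 of 36685 probe sets, several to 575 and none to 17599. The build of the array design is not given in the sources used here, so no coordinates of probe sets are given.

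A mean for each group was fitted in R 4.3.3 with limma 3.58.1 (eBayes, 2.86 prior degrees of freedom), with 5 comparisons, each adjusted by the Benjamini-Hochberg method over 36685 probe sets, and the code was tested on simulated data. Calls are at an adjusted p of 0.05. Each array was 1 sample of 2 pooled rats. Array medians ranged from 6.57 to 6.69, correlations between arrays from 0.959 to 0.992, and no 2 arrays were identical.

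The members and lists were chosen with earlier results of these data known. From each list, up to 4 genes with the largest called difference from intact are named, together with the 3 genes nearest to Ctsk and to Tnfrsf11b in root mean square distance, and other names are said to be chosen after their values were seen. The nearest genes of Acp5 were not computed, since it was not analysed here. Alternatives covered scaling, filters, the eBayes settings, array weights, a replicate block, marker means as covariates, and leaving out arrays. They also covered a Welch t-test in place of the methods' t-test. Plots were drawn in Python 3.11.15 with matplotlib 3.10.9.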

Additional observations from a re-analysis of the deposited data

Results flagged for a closer look

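Of 28 sets of 4 arrays (7 genes in 4 groups), 5 held 1 array far from the other 3 by Dixon's test, where chance would give about 1 in 20. Tnfrsf11a was high in day 2 replicate 1 (9.88, next array 9.67), Tnfsf11 was high in intact replicate 1 (7.63, next 7.30), and Tnfrsf11b was low in intact replicate 4 (9.74, next 9.98). Atp6v0d2 was high in day 2 replicate 4 (8.15, next 7.32) and low in day 14 replicate 3 (8.29, next 8.96). Without any one of these arrays the day 14 calls of these genes against intact were all retained. The day 28 call of Tnfrsf11a was lost without intact replicate 4 (0.37, adjusted p = 0.053).

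The response to MIA differed between days, by a direct test of day 14 against day 2, for Ctsk (0.89), Tnfrsf11a (-0.73), Tnfsf11 (1.12), Tnfrsf11b (0.44) and Atp6v0d2 (1.34). Between days 28 and 14 it differed for Tnfrsf11b (0.82).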

How the results depend on the processing

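Over the alternatives, the 19 called differences kept direction and call in 591 of 646 fits, lost the call in 55 and reversed in 0. Many fits repeat the estimate (another test, filter or block, or an array outside the comparison left out) and cannot reverse it. Tnfrsf11b on days 2 and 14 against intact kept both in all. The 3 osteoclast genes called on day 2 became 5 with the osteoblast mean as a covariate and 1 with the macrophage mean. By a Welch t-test, after adjustment or at the methods' threshold (p under 0.0001 and over 2-fold), they became 2, with Oscar lost. The 5 called on day 14 became 3 by the Welch t-test after adjustment, losing Tnfrsf11a (adjusted p = 0.081) and Atp6v0d2 (0.056). They became 1 at the methods' threshold and 1 with the synovial mean, a covariate chosen after seeing the data. The ANOVA of the study and its permutation estimate of the false discovery rate were not repeated. The 5 called on day 28 became 4 by the Welch t-test after adjustment, with Tnfrsf11a lost (adjusted p = 0.074). They became 0 at the methods' threshold and 0 with the synovial mean. Day 14 against day 2 had 5 calls, which became 3 (t-test, adjusted), 1 (the methods' threshold), 0 (macrophage mean) and 0 (synovial mean). The adjusted t-test lost Tnfrsf11b (adjusted p = 0.055) and Atp6v0d2 (0.052). With the macrophage mean 3 of those 5 estimates were larger and those of Tnfrsf11a (-0.15) and Tnfrsf11b (0.18) smaller, and with the synovial mean all 5 were larger (Ctsk 1.46, Tnfrsf11a -0.87, Tnfsf11 1.34, Tnfrsf11b 0.51 and Atp6v0d2 2.49). The single call of day 28 against day 14 became 0 by the t-test in both forms and 0 when the 4 arrays of least marrow signal were excluded, also chosen after seeing the data, as were the chondrocyte mean and the exclusion of the 4 arrays of most muscle signal. Where limma left 0 calls, the unadjusted p was under 0.05 for 5 genes (day 28, synovial mean), 3 and 6 (day 14 against day 2, macrophage and synovial means) and 2 (day 28 against day 14, arrays excluded), and for 5 and 1 by the t-test. Where the macrophage and synovial means removed calls here, they removed most calls of all probe sets as well. For day 14 against day 2, the synovial mean left 57 probe sets higher and 61 lower. The cause of these losses was not tested.

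Leaving out 1 array at a time gave 3 to 4 calls for day 2, 5 to 5 for day 14 and 4 to 5 for day 28 against intact, 5 to 5 for day 14 against day 2 and 1 to 1 for day 28 against day 14. With a replicate block the counts were 3, 5, 5, 5 and 1, and no call of a gene changed. Same-numbered arrays correlated from -0.36 to 0.46 over 24 pairs and 4 of 16 arrays were closest to their own number, so no pairing by the numbers of the titles was seen. Pairing by the other numbering of the day 2 arrays was not tested. With array medians centred, 6825 probe sets were higher and 2728 lower on day 2 (5404 and 4122 as deposited), 4084 and 1731 on day 14 (3350 and 2206), and 3500 and 1953 on day 28 (2848 and 2368), where cyclic loess gave 2251 and 2796. The other probe sets of a gene could not be tried, since each member has 1.

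Reversals concerned differences that were not called. Ctsk on day 2 was -0.042 with cyclic loess and -0.021 with the macrophage mean, and 0.094 for day 28 against day 14 without the arrays of least marrow signal. Calcr on day 2 was 0.055 with cyclic loess, 0.016 with centring, 0.099 with the osteoblast mean and 0.034 with the macrophage mean. On day 14 it was 0.040 (cyclic loess), 0.019 (marrow mean), 0.068 (osteoblast mean) and 0.65 (synovial mean), and on day 28 -0.0038 (array weights), -0.023 (osteoblast mean), -0.0092 (macrophage mean) and -0.019 (chondrocyte mean). For day 14 against day 2 it was -0.016 (cyclic loess), -0.018 (centring), -0.10 (muscle mean), -0.031 (osteoblast mean) and -0.090 (macrophage mean), and for day 28 against day 14 -0.0025 (cyclic loess) and -0.091 (osteoblast mean). Oscar for day 14 against day 2 was 0.20 (synovial mean), and for day 28 against day 14 it was 0.038 (marrow mean), 0.0041 (macrophage mean), 0.049 (synovial mean) and 0.30 (least marrow arrays excluded). Atp6v0d2 for day 28 against day 14 was -0.013 (array weights), -0.37 (osteoblast mean), -0.12 (chondrocyte mean) and -0.11 (most muscle arrays excluded). Leaving out 1 array moved Calcr between -0.24 and 0.030 on day 2, -0.12 and 0.0079 on day 14, -0.013 and 0.093 on day 28 and -0.079 and 0.19 for day 14 against day 2. For day 28 against day 14 it moved Oscar between -0.21 and 0.075 and Atp6v0d2 between -0.13 and 0.19.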
